A study of Rattus norvegicus with 12 samples.

Results

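The 70 genes described here carry out or control degradation in the lysosome. They were every gene of the count table named as a subunit of the vacuolar proton pump (Atp6v0 and Atp6v1), a cathepsin, a Lamp protein, a numbered autophagy gene (Atg) or a Gabarap protein, plus Map1lc3a, Map1lc3b, Becn1, Ulk1, Optn, Tfeb and Tfe3, among 30454 genes in all. Messenger RNA was sequenced from rat cells labelled PC12, a line derived from a pheochromocytoma of the adrenal medulla. The 4 libraries called OGDR came from cells put through a spell without oxygen and glucose and then reoxygenated. The 4 called MSCs had the same injury plus mesenchymal stem cells, and the 4 called rTMS-MSCs had the injury, the stem cells and repetitive transcranial magnetic stimulation at 10 Hz. All 12 were taken 48 h after treatment, so every group carries the injury, and undamaged cells were not analysed here. The labels do not give the origin of the stem cells, how they were combined with the injured cells, or whether libraries of a group came from separate cultures, so the p-values measure the spread between these libraries, which may be technical.

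A lysosome is an acidic compartment. The vacuolar pump acidifies it: its V1 sector in the cytosol splits ATP, and its V0 sector in the membrane carries the protons across. Cathepsins are proteases that work in that acid, and Lamp1 and Lamp2 are the main glycoproteins of the lysosomal membrane. In autophagy a kinase complex and a lipid kinase complex start a membrane sac, transfer proteins and scramblases feed it lipid, conjugation enzymes attach Map1lc3 and Gabarap proteins to it, and the closed autophagosome fuses with a lysosome. Tfeb and Tfe3 are transcription factors of the MiT/TFE family that drive many lysosomal and autophagy genes, and nerve cells starved of oxygen and glucose are known to engage this system.

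Each library held 18246250 to 20471838 counts in genes, in 16707 to 16964 genes with a count. The label PC12 was checked against markers of chromaffin cells: Ddc and Hand2 had no count in any library, Th, Dbh and Chga averaged 0.479, 0.638 and 0.0722 CPM (counts scaled to a common library total), and Scg2 averaged 234 CPM. Of 15 chromaffin markers, only Scg2 averaged at least 10 CPM, and 7 were under 1 CPM in every library. Of 12 Schwann and glial markers, 8 averaged at least 10 CPM, with Sox10 at 397 CPM. These markers do not bear out the label, and which cells these were was not tested. Summed chromaffin markers ran from 284.3 to 352 CPM in OGDR, 202.2 to 248.6 in MSCs and 212.2 to 229 in rTMS-MSCs. Glial sums ran from 933.5 to 1018, 1105 to 1177 and 1100 to 1209 CPM in the same order. Of 14 macrophage markers, which matter here because phagocytes are rich in lysosomes, 11 were under 1 CPM in every library, and Adgre1, C1qa and C1qb had no count. Their summed level, nearly all of it Cd14, ran from 52.51 to 61.14 CPM in OGDR, 52.87 to 67.48 in MSCs and 64.99 to 78.88 in rTMS-MSCs. The sum of 12 stromal markers was 1214 to 1263 CPM in OGDR, 1502 to 1546 in MSCs and 1368 to 1479 in rTMS-MSCs. Of these 12, 5 averaged at least 10 CPM and 4 were under 1 CPM in every library. Most of the sum was Fstl1, at a mean of 1038 CPM, and Pdgfra, at 273 CPM. Pdgfrb, Nt5e and Postn averaged 50.6, 18.15 and 10.8 CPM, each with its highest group mean in MSCs. Lum had no count, and Dcn, Thy1 and Col1a2 averaged under 1 CPM. In bulk libraries fewer cells of a type and less RNA per cell cannot be told apart. Many calls between the treated groups were lost without MSCs 3, MSCs 1 or rTMS-MSCs 3, so values of that comparison are also given without both libraries numbered 3. This pair was chosen after those losses were seen, and leaving it out keeps 3 libraries in each treated group. In summed V0 and cathepsin genes MSCs 3 was lowest and rTMS-MSCs 3 highest, so leaving out both must narrow those differences. Values in that setting are therefore a description and not an independent check.

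Of the 70 genes, 58 had enough counts to test. The 7 genes Atp6v1g3, Atp6v0a4, Ctsc, Ctsj, Ctsm, Ctsq and Ctsr had no count in any library, which over 235439302 counts allows up to 0.0127 CPM, for counting error only. Atp6v0d2 and Ctsg had 1 count each in all, and Ctsw, Ctsz and Atp6v1e2 had 50, 66 and 99. Ctsg and Ctsw are known from immune cells and Atp6v0d2 from osteoclasts. Of 6 osteoclast markers, Atp6v0d2 among them, 5 were under 1 CPM in every library and Nfatc1 averaged 36.2 CPM. Of the 58 genes, 29 passed the test in at least 1 of the 3 comparisons: 10 in exactly 1, 18 in exactly 2, and Ctsh in all 3. CPM values here are scaled by the trimmed mean of M-values (TMM). They are not divided by gene length, so they compare libraries and not genes.

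With stem cells added, the lysosomal genes moved in both directions. Cathepsin H (Ctsh), cathepsin E (Ctse), Becn1, Tfeb and the pump subunit Atp6v1g2 rose. The genes that fell were the lipid transfer gene Atg2a, the scramblase Atg9b, the autophagy receptor Optn, Atg16l2 and the pump subunits Atp6v1b2, Atp6v1c1, Atp6v1d, Atp6v0b and Atp6v0e2. Those 14 were 24.1% of the 58 tested, against 20.2% of all 13692 genes tested, so the share was near the background. In direction, 5 of 58 rose against 11.6% of all genes, and 9 of 58, which is 15.5%, fell against 8.63%. The 4 values of MSCs and OGDR did not overlap for 19 of the 58, or 32.8%, against 24.7% of all genes. The median log2 fold change of the 58 was -0.044 and that of all genes -0.002. A log2 fold change is the base 2 logarithm of the ratio of group levels, and a gene passed at an adjusted p under 0.05 in edgeR's quasi-likelihood test.

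When magnetic stimulation was added to stem cells, 11 of the 58 genes rose and 2 fell, 22.4% in all against 18.1% of all genes. The rises were 19.0% of the 58 against 7.14% of all genes, and the falls 3.45% against 10.9%. The 11 were the pump subunits Atp6v1d, Atp6v1e1, Atp6v0b, Atp6v0c, Atp6v0d1 and Atp6v0e2, the cathepsins Ctsb, Ctsd and Ctsh, the autophagy initiation gene Atg101, and Gabarap. Atp6v1a and Atg2b fell. The 4 values of each group did not overlap for 13 of the 58, or 22.4%, against 19.0% of all genes. The rises were small: their log2 fold changes lay between 0.163 and 0.312, and the median over all 58 genes was 0.106 against 0.015 over all genes. Most of these calls were lost when 1 or 2 libraries were left out. Without MSCs 3 and rTMS-MSCs 3, all 11 differences stayed positive, between 0.104 and 0.204, but none passed (adjusted p 0.0782 to 0.321), and of the falls only that of Atg2b did. With the same 2 libraries left out, 1.12% of all genes rose and 3.79% fell, and 10 of the 59 lysosomal genes then tested, or 16.9%, were higher at an unadjusted p under 0.05, against 7.94% of all genes. DESeq2 called 1 of them higher and 1 lower there, against 1.85% and 4.62% of all genes. Leaving out 1 library at a time gave 3 rises without MSCs 3, 6 without MSCs 1, 6 without rTMS-MSCs 3 and up to 14 without rTMS-MSCs 4, and no other pair of libraries was left out.

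Between stimulated cells with stem cells and injured cells alone, 13 of the 58 genes rose and 9 fell, which is 37.9% against 32.4% of all genes. The rises were 22.4% against 16.2%, and the falls 15.5% against 16.2%. Ctsh, Ctse, Ctsb, Ctsd, Tfeb, Becn1, Atg101, Atg9a, Map1lc3a, Gabarapl1, Atp6v0c, Atp6v0e1 and Atp6v1g2 rose. Atg2a, Atg2b, Atg9b, Atg4c, Optn, Tfe3, Atp6v1a, Atp6v1b2 and Atp6v1c1 fell. Groups did not overlap for 19 of the 58, or 32.8%, against 30.3% of all genes. This comparison shares its OGDR libraries with the first and its rTMS-MSCs libraries with the second, so the 3 are not independent.

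**Figure D1:**
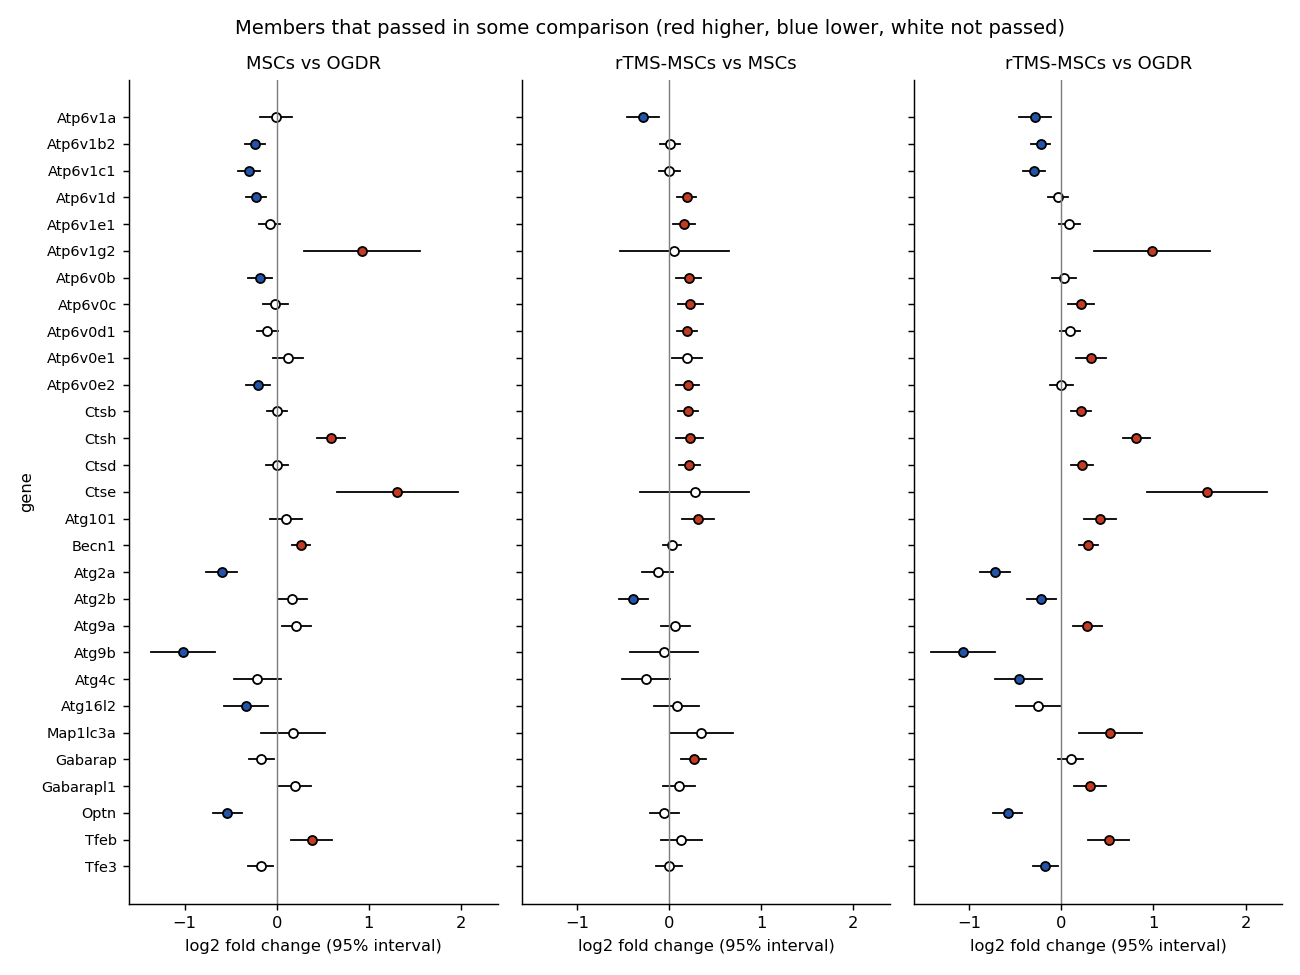
Log2 fold change (points) with its 95% interval (bars) for the 29 genes that passed in at least 1 comparison, 1 panel per comparison. Red points rose, blue points fell and white points did not pass. Ctse, Ctsh and Atp6v1g2 lie farthest to the right and Atg9b and Atg2a farthest to the left in both comparisons with OGDR, while all points of the middle panel lie within 0.40 of 0.

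**Figure D2:**
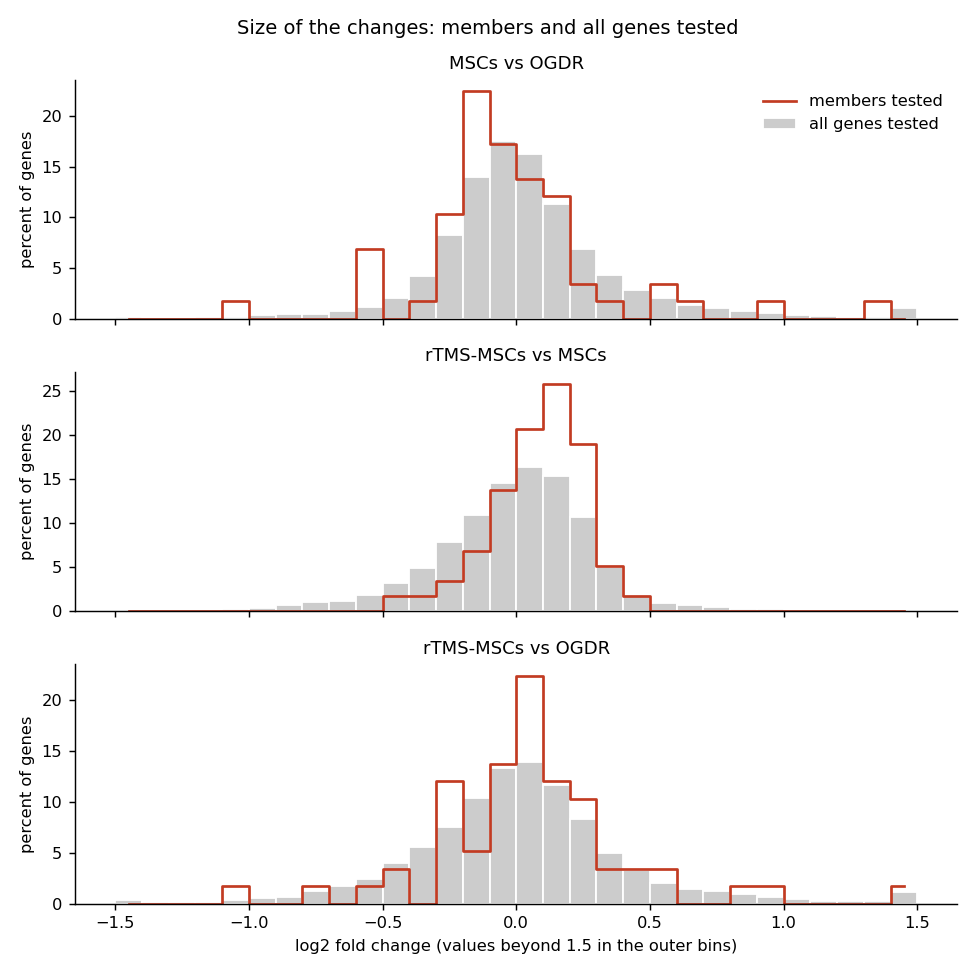
Share of genes (percent) by log2 fold change in steps of 0.1, for the 58 genes tested (red line) and all 13692 genes tested (grey bars). In the middle panel, rTMS-MSCs against MSCs, both the red line and the grey bars peak to the right of 0. The grey peak is the step from 0 to 0.1, with 2243 genes. The median is 0.106 for the 58 genes against 0.015 for all genes.

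Tfeb, the family member best known for driving lysosomal genes, was measured at 20.3, 19.6, 18.7 and 17.6 CPM in OGDR, 25.8, 28.2, 23.2 and 21.9 in MSCs and 25.1, 28.8, 31.8 and 23.1 in rTMS-MSCs. All 8 treated libraries lay above all 4 OGDR libraries, and the 2 treated groups overlapped. The log2 fold change was 0.38 ± 0.11 (SE), adjusted p = 0.0146 in MSCs against OGDR, and 0.51 ± 0.11 (SE), adjusted p = 0.00104 in rTMS-MSCs against OGDR. The first of these calls was lost without OGDR 4 (adjusted p = 0.0526) or without MSCs 2 (adjusted p = 0.0647). Between the treated groups Tfeb differed by 0.13, with a 95% interval of -0.087 to 0.35.

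Tfe3, its relative, went the other way. It had 64.1, 71.8, 64.2 and 70.5 CPM in OGDR, 60.9, 62.1, 61.1 and 55.9 in MSCs and 62.1, 59.9, 60.4 and 57.5 in rTMS-MSCs. Every treated library was below every OGDR library, by a small margin. The fall passed in rTMS-MSCs against OGDR, at -0.17 ± 0.065 (SE), adjusted p = 0.0467, and not in MSCs against OGDR, at -0.17, adjusted p = 0.0672, where upper quartile scaling (adjusted p = 0.0377) and DESeq2 (0.0385) did pass it. The call in rTMS-MSCs stood close to the threshold and was lost without any 1 of OGDR 2, OGDR 4 or any rTMS-MSCs library, with adjusted p between 0.0536 and 0.14.

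Both factors are held in the cytosol by kinases and by the folliculin complex at the lysosome. Of 24 such regulators and family members tested, in MSCs against OGDR 1 rose and 2 fell, in rTMS-MSCs against MSCs 1 rose and 7 fell, and in rTMS-MSCs against OGDR none rose and 8 fell. Over all genes 11.6% rose and 8.63% fell in the first comparison, 7.14% and 10.9% in the second, and 16.2% each way in the third. Of the 24, 3 fell in the second comparison without both libraries numbered 3, where 3.79% of all genes fell. Fnip2, a partner of folliculin, had 24.5 ± 4.95 CPM in OGDR, 23.5 ± 3.75 in MSCs and 11.7 ± 2.39 in rTMS-MSCs (means ± SD over 4 libraries, as for the other genes of such lists), and fell by 1.00 on the log2 scale in rTMS-MSCs against MSCs (adjusted p = 0.000834). Mtor, the kinase that phosphorylates Tfeb, had 105 ± 7.73 CPM in OGDR, 114 ± 4.82 in MSCs and 93.5 ± 4.72 in rTMS-MSCs, and its log2 fold change there was -0.29 ± 0.063 (SE), adjusted p = 0.00568. Folliculin itself (Flcn) had 56.5 ± 0.677 CPM in OGDR, 48.95 ± 2.48 in MSCs and 43.1 ± 3.61 in rTMS-MSCs, and differed from OGDR by -0.21 ± 0.071 (SE), adjusted p = 0.0442 in MSCs and by -0.39 ± 0.072 (SE), adjusted p = 0.000329 in rTMS-MSCs. Foxo1, a factor that also acts on autophagy genes, was highest in MSCs, at 13.04 ± 0.664 CPM in OGDR, 19.1 ± 2.35 in MSCs and 12.4 ± 1.67 in rTMS-MSCs. Its log2 fold change was 0.55 ± 0.12 (SE), adjusted p = 0.0015 in MSCs against OGDR and -0.62 ± 0.12 (SE), adjusted p = 0.00242 in rTMS-MSCs against MSCs. The falls of Fnip2, Foxo1 and Mtor between the treated groups also passed without both libraries numbered 3, at -0.798, -0.472 and -0.237 (adjusted p = 0.00138, 0.0206 and 0.0369), while that of Flcn in MSCs against OGDR did not (adjusted p = 0.0673).

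Tfeb and Tfe3 bind a palindrome of 6 letters, CACGTG, and the extended form TCACGTGA is the core of the element named for coordinated lysosomal expression and regulation. These letters were searched in the promoters that RefSeq gives for build GRCr8, from 250 bases before to 50 bases after each gene's start. Both forms read the same on either strand, and every extended match is also a match of the shorter form. Of the 70 genes, 57 had a promoter. The extended form was in 5 of the 57, or 8.77%, against 0.777% of 33469 promoters, and the 6 letters were in 8, or 14%, against 6.42%. Each extended match is printed below on its gene's strand with the match in capitals, since these 5 promoters are the ones among the set that hold the element. The positions given, also where the first capital is named, are those of the first capital of the 6 letters CACGTG, after the leading T.
Ctsd, chr1:206968814-206968843, minus strand, first capital 10 bases before the start: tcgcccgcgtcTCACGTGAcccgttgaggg
Atp6v0d1, chr19:50357283-50357312, minus strand, 52 bases before the start: ccccattgtggTCACGTGAgatgcagtgcg
Atp6v0e1, chr10:17007115-17007144, minus strand, first capital at base 25 of the transcript: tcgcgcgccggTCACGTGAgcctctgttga
Atg3, chr11:69159279-69159308, minus strand, 16 bases before the start: ggagattcgagTCACGTGAggcctaggagg
Lamp1, chr16:83075111-83075140, minus strand, 65 bases before the start: agaccctcggcTCACGTGAccggcgggcgc
Lamp1, chr16:83075084-83075113, minus strand, 38 bases before the start: cgcggcactgtTCACGTGAcaggcgctgcc

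Of these 5 genes, Ctsd and Atp6v0d1 rose in rTMS-MSCs against MSCs, and Ctsd and Atp6v0e1 rose in rTMS-MSCs against OGDR. None passed in MSCs against OGDR, although every MSCs library of Atp6v0d1 was below every OGDR library. Lamp1 and Atg3 passed in no comparison. The extended form was in 3 of 22 promoters of genes that passed somewhere and in 2 of 26 of tested genes that passed nowhere. Among the related lists described below it was most frequent in the tethering and fusion genes of the autophagosome, in 7 of 22 promoters. Atg14, Atg5 and Ctsf held only the 6 letters. A match is a description of the letters, not of binding.

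Of 10 subunit genes of the V1 sector tested, in MSCs against OGDR 1 rose and 3 fell, where 11.6% of all genes rose and 8.63% fell. Below 0 were 9 of the 10 log2 fold changes, against 6893 of all 13692 genes tested. In rTMS-MSCs against MSCs 2 rose and 1 fell, where 7.14% of all genes rose and 10.9% fell. Above 0 were 9 of the 10, against 7176 of all 13692 genes tested. Summed over the V1 genes of the count table, the level was 1258 ± 12.4 CPM in OGDR, 1145 ± 31.2 in MSCs and 1210 ± 28.8 in rTMS-MSCs (SD, n = 4). No MSCs library reached the lowest OGDR library. No gene of the count table was named Atp6v1f, so this sum lacks it.

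Subunit C (Atp6v1c1), which helps hold V1 to V0, had 126, 128, 119.6 and 122 CPM in OGDR, 101, 98.8, 97.7 and 106 in MSCs and 96.3, 96.5, 105 and 106 in rTMS-MSCs. The treated libraries were all below the OGDR libraries. Set against OGDR, the log2 fold change was -0.30 ± 0.056 (SE), adjusted p = 0.000492 in MSCs and -0.30 ± 0.056 (SE), adjusted p = 0.000414 in rTMS-MSCs, and between the treated groups it was 0.0027 with an interval of -0.11 to 0.12. Atp6v1b2, the widespread form of subunit B, had 174, 177, 184 and 183 CPM in OGDR, 152, 159, 149.8 and 149 in MSCs and 152, 162, 147 and 153 in rTMS-MSCs. It too was lower in every treated library than in any OGDR library, by -0.23 ± 0.052 (SE), adjusted p = 0.00227 in MSCs and -0.23 ± 0.052 (SE), adjusted p = 0.00225 in rTMS-MSCs. These 2 calls held under every alternative run.

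Atp6v1d, part of the central stalk, had 230.3, 218, 229.7 and 232 CPM in OGDR, 196, 191, 190.03 and 202 in MSCs and 229, 210.1, 235 and 215 in rTMS-MSCs. It was low in the MSCs libraries only, below all others. Its log2 fold change was -0.22 ± 0.051 (SE), adjusted p = 0.00332 in MSCs against OGDR, 0.19 ± 0.051 (SE), adjusted p = 0.0161 in rTMS-MSCs against MSCs and -0.033 (interval -0.14 to 0.073) in rTMS-MSCs against OGDR. The rise at the second step was lost without MSCs 3 (adjusted p = 0.0566). Atp6v1e1, a peripheral stalk subunit, had 183, 178, 180.4 and 182 CPM in OGDR, 182, 164, 161 and 179 in MSCs and 197, 182, 204 and 185 in rTMS-MSCs. Its rise in rTMS-MSCs against MSCs, at 0.16 ± 0.055 (SE), adjusted p = 0.0464, was lost without any 1 of MSCs 2, MSCs 3, rTMS-MSCs 1 or rTMS-MSCs 3 (adjusted p 0.0931 to 0.15).

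Atp6v1a, the catalytic subunit that splits ATP, was the V1 gene that fell after stimulation. It had 145, 167, 170.5 and 168 CPM in OGDR, 165, 146, 176 and 161 in MSCs and 132, 139, 108 and 153 in rTMS-MSCs. The groups overlapped, and rTMS-MSCs 3 was the lowest of all 12 libraries. Stimulated cells differed by -0.28 ± 0.084 (SE), adjusted p = 0.0267 against MSCs and -0.29 ± 0.084 (SE), adjusted p = 0.0124 against OGDR. The first was lost without MSCs 1 (adjusted p = 0.0736), MSCs 3 (0.107) or rTMS-MSCs 3 (0.0665). Without both libraries numbered 3 it was -0.155, against -0.28 with all libraries. The second call held under every alternative.

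Atp6v1g2, the form of subunit G known from neurons, was close to the limit of detection at 0.731, 0.6901, 1.06 and 0.987 CPM in OGDR, 1.81, 1.796, 1.46 and 1.54 in MSCs and 1.94, 2.32, 1.27 and 1.35 in rTMS-MSCs. All treated libraries were above all OGDR libraries. Its log2 fold change was 0.93 ± 0.30 (SE), adjusted p = 0.034 in MSCs and 0.98 ± 0.30 (SE), adjusted p = 0.0165 in rTMS-MSCs, both against OGDR. The first was lost without OGDR 1, OGDR 2, MSCs 1 or MSCs 2 (adjusted p 0.079 to 0.0928), and the second without rTMS-MSCs 2 (adjusted p = 0.0678). The remaining V1 genes, Atp6v1b1, Atp6v1c2, Atp6v1g1 and Atp6v1h, passed nowhere. Atp6v1fnb, which matches the naming rule but is a neighbour of a subunit gene and not known as a subunit, also passed nowhere.

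Of 6 genes of the V0 sector tested, in MSCs against OGDR none rose and 2 fell, in rTMS-MSCs against MSCs 4 rose and none fell, and in rTMS-MSCs against OGDR 2 rose and none fell. Of all genes, 8.63% fell in the first of these comparisons, and 7.14% and 16.2% rose in the other two. All 6 log2 fold changes were positive at the stimulation step, as were 7176 of all 13692 genes tested. The median of the 6 was 0.199, against 0.015 over all genes. The count table held no gene named Atp6v0a2, so the V0 sum lacks it. The summed level was 1251 ± 52.7 CPM in OGDR, 1212 ± 60.0 in MSCs and 1382 ± 84.1 in rTMS-MSCs (SD, n = 4). The lowest rTMS-MSCs library, at 1304 CPM, was above the highest MSCs library, at 1282, and the highest was rTMS-MSCs 3, at 1501. With both libraries numbered 3 left out, the means were 1233 ± 52.5 CPM in MSCs and 1343 ± 35.3 in rTMS-MSCs (SD, n = 3).

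Atp6v0c, the subunit that forms most of the proton-carrying ring, had 553, 565, 507 and 493 CPM in OGDR, 512, 568, 487 and 526 in MSCs and 587, 619.6, 690.1 and 561 in rTMS-MSCs. The rTMS-MSCs libraries were higher on the whole and touched the upper end of the others. In rTMS-MSCs it rose by a log2 fold change of 0.23 ± 0.066 (SE), adjusted p = 0.0205 against MSCs and 0.21 ± 0.065 (SE), adjusted p = 0.0166 against OGDR. The first was lost without MSCs 1, MSCs 3, rTMS-MSCs 2 or rTMS-MSCs 3 (adjusted p 0.0516 to 0.0794). The second was lost without OGDR 3 (adjusted p = 0.0578) or OGDR 4 (0.0659).

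Atp6v0b, the other kind of ring subunit, had 122, 124, 115 and 107 CPM in OGDR, 100.2, 108, 96.3 and 107 in MSCs and 115, 121, 128 and 113 in rTMS-MSCs. Its MSCs libraries were lowest, overlapping OGDR and lying below rTMS-MSCs. The fall in MSCs against OGDR, at -0.18 ± 0.063 (SE), adjusted p = 0.0496, stood at the threshold and was lost without any 1 of 6 libraries, OGDR 1 to 3, MSCs 1, MSCs 3 and MSCs 4, with adjusted p up to 0.152. The rise in rTMS-MSCs against MSCs was 0.21 ± 0.063 (SE), adjusted p = 0.0268. It was lost without MSCs 1, MSCs 3, rTMS-MSCs 2 or rTMS-MSCs 3 (adjusted p 0.063 to 0.1).

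Atp6v0d1, which couples V0 to the stalk and holds the element printed above, had 186, 182, 183 and 179 CPM in OGDR, 164, 177, 165 and 175 in MSCs and 193, 186, 212 and 189 in rTMS-MSCs. The MSCs libraries were below all others. Its log2 fold change was 0.20 ± 0.054 (SE), adjusted p = 0.0171 in rTMS-MSCs against MSCs, and it did not pass in MSCs against OGDR, at -0.10, adjusted p = 0.197. The rise was lost without MSCs 1 (adjusted p = 0.0612) or MSCs 3 (0.0607). Atp6v0e2, a small membrane subunit, had 71.9, 70.7, 69.96 and 67.8 CPM in OGDR, 60.1, 61.4, 59.7 and 62.5 in MSCs and 64.5, 70.3, 74.1 and 71.3 in rTMS-MSCs. It was lowest in MSCs without overlap, at -0.20 ± 0.061 (SE), adjusted p = 0.0225 against OGDR and 0.20 ± 0.061 (SE), adjusted p = 0.0288 in rTMS-MSCs against MSCs. The fall was lost without OGDR 1, OGDR 2, MSCs 1 or MSCs 3 (adjusted p up to 0.0611). The rise was lost without MSCs 1, MSCs 3, rTMS-MSCs 2 or rTMS-MSCs 3 (adjusted p up to 0.0843).

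Atp6v0e1, its close relative, had 118, 134, 114 and 111 CPM in OGDR, 122.6, 135, 114 and 148 in MSCs and 152, 145, 162 and 136 in rTMS-MSCs. The rTMS-MSCs libraries were above all OGDR libraries, and the MSCs libraries spread across both. Its log2 fold change was 0.32 ± 0.079 (SE), adjusted p = 0.00388 against OGDR, a call held under every alternative. Against MSCs it did not pass, at 0.20, adjusted p = 0.0855, except without MSCs 4 (adjusted p = 0.0303) or rTMS-MSCs 4 (0.043). Atp6v0a1, the large subunit whose form decides where the pump sits, stayed within a narrow band: 231, 231, 233 and 235 CPM in OGDR, 219, 232, 227 and 223 in MSCs and 239, 232, 235 and 234 in rTMS-MSCs. It passed nowhere, and its 95% intervals were -0.14 to 0.048 in MSCs against OGDR, -0.035 to 0.15 in rTMS-MSCs against MSCs and -0.081 to 0.11 in rTMS-MSCs against OGDR.

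**Figure D3:**
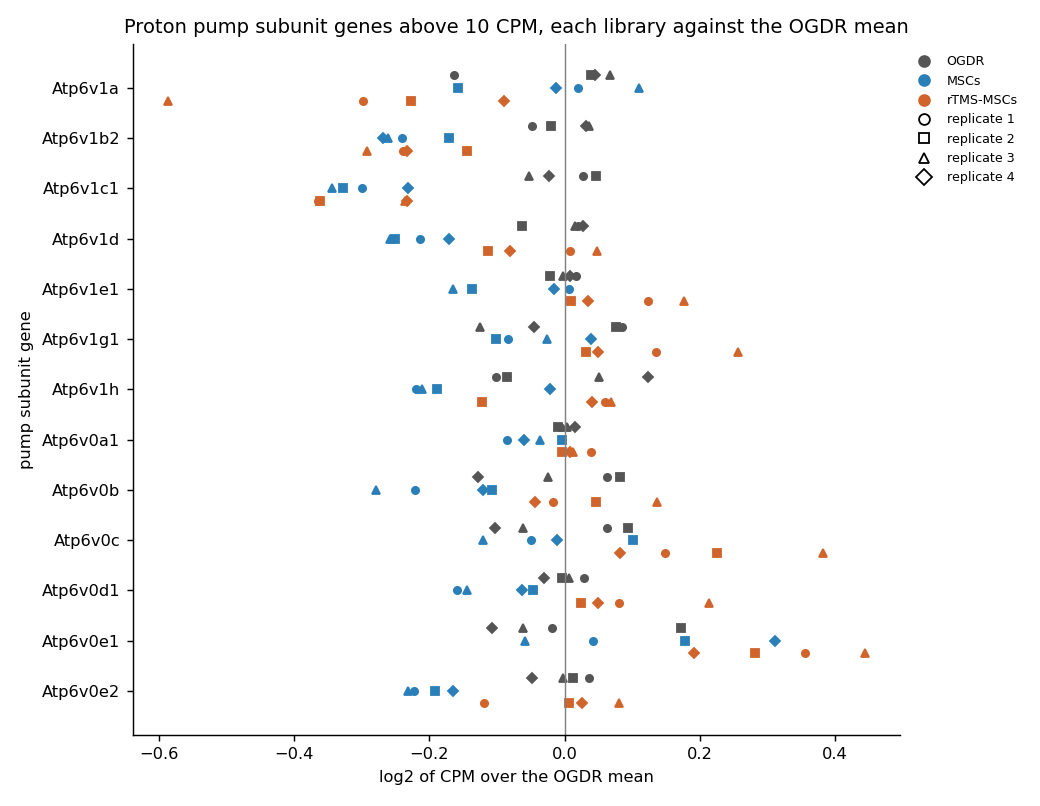
Log2 of each library's CPM over the OGDR mean for the 13 pump subunit genes above 10 CPM, by group (colour) and replicate number (shape). Atp6v1b2 and Atp6v1c1 are left of 0 in all 8 treated libraries, the V0 genes lie on average further right in rTMS-MSCs than in MSCs, and rTMS-MSCs 3 is at the far left for Atp6v1a and at the far right for Atp6v0c, Atp6v0d1 and Atp6v0e1.

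Beside the pump itself, 14 accessory, assembly and regulatory genes were tested. In MSCs against OGDR 1 fell, in rTMS-MSCs against MSCs 2 and in rTMS-MSCs against OGDR 5. The falls were 7.14%, 14.3% and 35.7% of the 14, against 8.63%, 10.9% and 16.2% of all genes. None rose in any comparison, where 11.6%, 7.14% and 16.2% of all genes rose. Tmem199, needed for pump assembly, had 55.5 ± 6.83 CPM in OGDR, 41.8 ± 4.46 in MSCs and 45.3 ± 2.73 in rTMS-MSCs, a log2 fold change of -0.41 ± 0.093 (SE), adjusted p = 0.00301 in MSCs against OGDR. Wdr7 and Dmxl1, parts of the complex that joins V1 to V0, and Ncoa7, a protein that binds V1, fell in rTMS-MSCs against OGDR. Wdr7 had 60.6 ± 4.77 CPM in OGDR, 68.1 ± 7.37 in MSCs and 50.1 ± 4.42 in rTMS-MSCs and Ncoa7 had 22.1 ± 1.79 CPM in OGDR, 21.6 ± 1.41 in MSCs and 15.5 ± 1.69 in rTMS-MSCs, differing between the treated groups by -0.44 ± 0.085 (SE), adjusted p = 0.00279 and by -0.48 ± 0.10 (SE), adjusted p = 0.0041. Both falls also passed without the libraries numbered 3 (adjusted p = 0.0192 and 0.0403). Dmxl1 had 36.1 ± 5.05 CPM in OGDR, 32.3 ± 5.03 in MSCs and 25.2 ± 5.101 in rTMS-MSCs, and differed from OGDR in rTMS-MSCs by -0.52 ± 0.13 (SE), adjusted p = 0.00594.

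Among the cathepsins, 10 were tested, 7 of them cysteine proteases. In MSCs against OGDR 2 rose, in rTMS-MSCs against MSCs 3, and in rTMS-MSCs against OGDR 4, and none fell, where 11.6%, 7.14% and 16.2% of all genes rose. The summed cathepsin level was 2207 ± 55.7 CPM in OGDR, 2232 ± 105 in MSCs and 2525 ± 114 in rTMS-MSCs (SD, n = 4). The lowest rTMS-MSCs library, at 2441 CPM, was above the highest MSCs library, at 2320. The means were 2277 ± 66.7 CPM in MSCs and 2470.2 ± 40.4 in rTMS-MSCs (SD, n = 3) when both libraries numbered 3 were left out.

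Cathepsin H, a cysteine protease that also trims peptides from their amino end, had 42.1, 41.7, 38.5 and 39.6 CPM in OGDR, 57.6, 64.7, 58.1 and 63.5 in MSCs and 70.6, 67.2, 78.9 and 68.2 in rTMS-MSCs. The 3 groups did not overlap in any pairing: OGDR was lowest and rTMS-MSCs highest. It rose by a log2 fold change of 0.59 ± 0.072 (SE), adjusted p = 3.12e-06 in MSCs against OGDR and 0.82 ± 0.072 (SE), adjusted p = 2.97e-08 in rTMS-MSCs against OGDR, and both held under every alternative. The further step in rTMS-MSCs against MSCs was 0.22 ± 0.070 (SE), adjusted p = 0.0338. It was lost without MSCs 1, MSCs 3, rTMS-MSCs 1 or rTMS-MSCs 3 (adjusted p 0.0534 to 0.113).

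Cathepsin E, an aspartic protease known mainly from immune and gut cells, was low throughout, at 0.877, 1.33, 1.11 and 0.935 CPM in OGDR, 1.51, 3.44, 3.14 and 2.497 in MSCs and 2.74, 1.896, 3.55 and 4.61 in rTMS-MSCs. Every treated library exceeded every OGDR library. It rose by a log2 fold change of 1.31 ± 0.32 (SE), adjusted p = 0.00489 in MSCs and 1.58 ± 0.31 (SE), adjusted p = 0.000628 in rTMS-MSCs against OGDR, the largest sizes among the 58 genes in each comparison. Both held under every alternative, and between the treated groups the interval was -0.32 to 0.87.

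Cathepsins B and D are the abundant general proteases of the lysosome. Ctsb had 822, 821, 795 and 818 CPM in OGDR, 777, 852, 759.7 and 874 in MSCs and 912, 966, 996 and 898 in rTMS-MSCs, and Ctsd had 589, 572, 536 and 522 CPM in OGDR, 562, 576, 529.8 and 554 in MSCs and 621, 634, 719.9 and 614 in rTMS-MSCs. In both the rTMS-MSCs libraries were above all others, while OGDR and MSCs overlapped. The log2 fold change in rTMS-MSCs was 0.21 ± 0.052 (SE), adjusted p = 0.0107 against MSCs and 0.21 ± 0.052 (SE), adjusted p = 0.00396 against OGDR for Ctsb. For Ctsd it was 0.22 ± 0.057 (SE), adjusted p = 0.0123 against MSCs and 0.22 ± 0.057 (SE), adjusted p = 0.00513 against OGDR. The calls against MSCs were lost for both only when MSCs 3 and rTMS-MSCs 3 were left out together, at 0.15 (adjusted p = 0.0813) for Ctsb and 0.144 (adjusted p = 0.103) for Ctsd, and the calls against OGDR held under every alternative.

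Cathepsin L, another abundant cysteine protease, did not pass. It had 526, 526, 499 and 525 CPM in OGDR, 511, 529.7, 490.2 and 556 in MSCs and 563, 541, 563 and 567 in rTMS-MSCs, and its differences were 0.0069, 0.10 (interval -0.0021 to 0.20) and 0.11 (interval 0.0049 to 0.21) in the order above. Its rTMS-MSCs libraries were all above its OGDR libraries. Cathepsin K, the collagen-cutting protease of osteoclasts, was near 1 CPM: 0.585, 0.592, 1.01 and 0.623 CPM in OGDR, 1.21, 1.13, 0.812 and 1.28 in MSCs and 1.29, 0.948, 0.371 and 1.304 in rTMS-MSCs. Its interval against OGDR, -0.15 to 1.45 in MSCs, spans a small fall and a sizeable rise. Ctsa, Ctsf, Ctso and Ctss, the remaining tested cathepsins, passed nowhere.

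**Figure D4:**
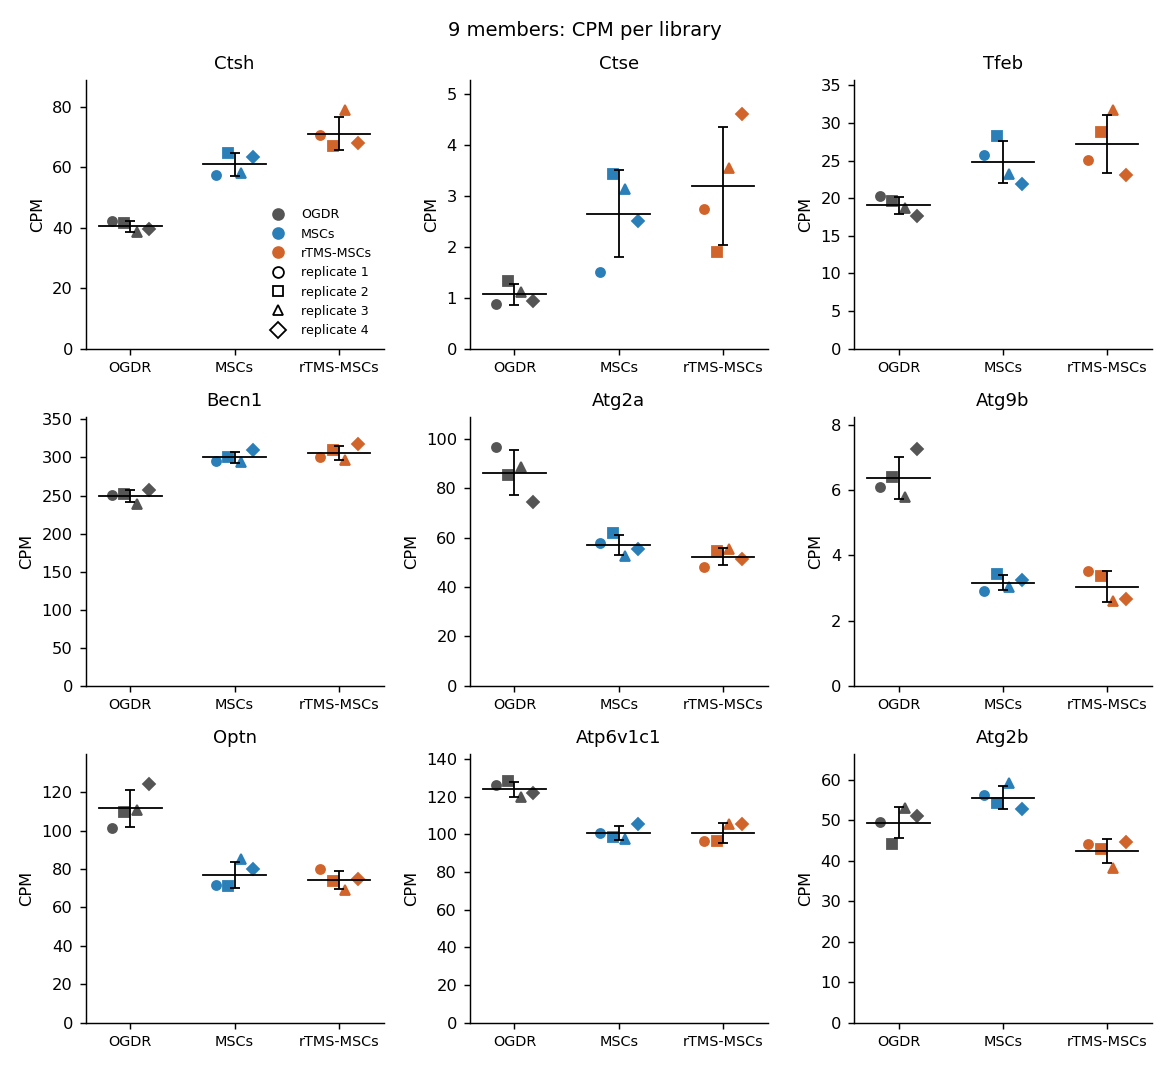
CPM in each library (points, shape by replicate number) with the group mean (line) and SD (bar, n = 4) for 9 genes. Ctsh, Ctse, Tfeb and Becn1 are higher and Atg2a, Atg9b, Optn and Atp6v1c1 lower in all 8 treated libraries than in all 4 OGDR libraries, while Atg2b is lowest in rTMS-MSCs.

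Of 5 inhibitors of cathepsins tested, 2 rose in MSCs against OGDR, 3 in rTMS-MSCs against MSCs and 3 in rTMS-MSCs against OGDR, and none fell, where 11.6%, 7.14% and 16.2% of all genes rose. Their largest log2 fold changes against OGDR, 1.93 in MSCs and 2.21 in rTMS-MSCs, were both those of Cst3. Cystatin C (Cst3), a secreted inhibitor of cysteine cathepsins, had 188 ± 10.9 CPM in OGDR, 719.9 ± 44.2 in MSCs and 872 ± 91.1 in rTMS-MSCs, and its log2 fold change was 1.93 ± 0.069 (SE), adjusted p = 2.36e-14 in MSCs against OGDR and 0.28 ± 0.066 (SE), adjusted p = 0.00854 in rTMS-MSCs against MSCs. Serpinb1a, an inhibitor of serine proteases, had 5.35 ± 0.384 CPM in OGDR, 12.04 ± 2.08 in MSCs and 14.5 ± 1.38 in rTMS-MSCs, with 1.17 ± 0.13 (SE), adjusted p = 1.58e-06 in MSCs against OGDR. Cystatin B (Cstb), the inhibitor inside the cell, had 124 ± 4.48 CPM in OGDR, 109 ± 3.57 in MSCs and 135 ± 16.5 in rTMS-MSCs, and rose in rTMS-MSCs against MSCs at 0.31 ± 0.070 (SE), adjusted p = 0.00638. Leaving out both libraries numbered 3, that of Cstb was 0.215 (adjusted p = 0.0484) and that of Cst3, no longer passing, 0.172 (adjusted p = 0.0639).

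The other lysosomal hydrolases and their activators, numbered 39 tested. In MSCs against OGDR 3 rose and 2 fell, which is 12.8% against 20.2% of all genes. In rTMS-MSCs against MSCs 6 rose and none fell, 15.4% against 18.1%, and 1 of the 6 rises, that of Hexa (0.221, adjusted p = 0.0406), passed without both libraries numbered 3. In rTMS-MSCs against OGDR 14 rose and 1 fell, 38.5% against 32.4%. Counted in either direction, the shares of the last 2 comparisons were near those of all genes. By direction they differed, since nearly all of these calls were rises. Of all genes, 7.14% rose and 10.9% fell in rTMS-MSCs against MSCs, and 16.2% went each way in rTMS-MSCs against OGDR. Hexa, an enzyme of ganglioside breakdown, had 147 ± 12.4 CPM in OGDR, 157 ± 5.06 in MSCs and 189 ± 9.08 in rTMS-MSCs, and Fuca1, which removes fucose, had 115 ± 9.59 CPM in OGDR, 137 ± 9.44 in MSCs and 159 ± 11.8 in rTMS-MSCs. In rTMS-MSCs against OGDR they rose by a log2 fold change of 0.37 ± 0.061 (SE), adjusted p = 0.000114 and of 0.47 ± 0.070 (SE), adjusted p = 3.08e-05. Psap, the source of the saposins, had 1398 ± 14.8 CPM in OGDR, 1579 ± 74.5 in MSCs and 1658 ± 68.6 in rTMS-MSCs, a difference of 0.18 ± 0.046 (SE), adjusted p = 0.0088 in MSCs against OGDR. Neu1, the lysosomal sialidase, fell in MSCs against OGDR, from 26.9 ± 2.07 to 18.9 ± 2.8000 CPM, at -0.51 ± 0.11 (SE), adjusted p = 0.00253.

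Lamp1 and Lamp2 passed in no comparison. Lamp1 had 685, 671, 657 and 613 CPM in OGDR, 627, 683, 585 and 594 in MSCs and 659.6, 680.3, 737 and 637 in rTMS-MSCs, and Lamp2 had 223, 212, 231 and 231 CPM in OGDR, 238, 219, 249 and 252 in MSCs and 219, 210.4, 189 and 251 in rTMS-MSCs. Their groups overlapped in every comparison. At the stimulation step the differences were of opposite sign, 0.12 (interval 0.0032 to 0.25) for Lamp1 and -0.14 (interval -0.29 to 0.0048) for Lamp2. Each passed there in 1 alternative, Lamp1 without MSCs 2 (adjusted p = 0.0493) and Lamp2 without rTMS-MSCs 4 (adjusted p = 0.0192). Lamp3, a marker of mature dendritic cells, had under 3 CPM in every library and did not pass. The summed level of the 3 genes was 882 ± 26.7 CPM in OGDR, 864 ± 30.04 in MSCs and 897 ± 21.1 in rTMS-MSCs (SD, n = 4).

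Other proteins of the lysosomal membrane and of enzyme sorting, numbered 30 tested. In MSCs against OGDR 5 rose and 3 fell, in rTMS-MSCs against MSCs 1 rose and 5 fell, and in rTMS-MSCs against OGDR 5 rose and 5 fell. These shares, 26.7%, 20.0% and 33.3%, were near the 20.2%, 18.1% and 32.4% of all genes. Mcoln3, a calcium channel of endosomes and lysosomes, had 10.2 ± 2.28 CPM in OGDR, 3.502 ± 1.62 in MSCs and 3.47 ± 0.649 in rTMS-MSCs, with -1.55 ± 0.24 (SE), adjusted p = 6.9e-05 in MSCs against OGDR. Sortilin (Sort1), a sorting receptor for lysosomal enzymes, had 97.5 ± 5.14 CPM in OGDR, 143 ± 11.1 in MSCs and 128 ± 6.81 in rTMS-MSCs, with 0.55 ± 0.064 (SE), adjusted p = 1.89e-06, and Laptm4b, a lysosomal membrane protein, had 150.5 ± 6.97 CPM in OGDR, 205 ± 9.096 in MSCs and 215 ± 6.24 in rTMS-MSCs, with 0.44 ± 0.053 (SE), adjusted p = 2.65e-06. After stimulation Igf2r, the receptor that carries enzymes tagged with mannose 6-phosphate, went from 625 ± 48.5 to 487 ± 33.5 CPM at -0.36 ± 0.060 (SE), adjusted p = 0.00142. Npc1, the cholesterol exporter, went from 63.6 ± 3.87 to 50.99 ± 5.37 CPM at -0.32 ± 0.077 (SE), adjusted p = 0.00891. Its soluble partner Npc2, counted with the hydrolases above, rose from 457 ± 32.3 to 551 ± 46.2 CPM at 0.27 ± 0.062 (SE), adjusted p = 0.00673. The only rise of the membrane and sorting list was that of Cd63, from 835 ± 43.2 to 1023 ± 84.95 CPM at 0.29 ± 0.060 (SE), adjusted p = 0.00362. In OGDR Cd63 had 978 ± 55.15 CPM. Without both libraries numbered 3, Igf2r passed at -0.269 (adjusted p = 0.00346) and Cd63 at 0.212 (adjusted p = 0.0191). Npc1, at -0.236 (adjusted p = 0.0726), and Npc2, at 0.178 (adjusted p = 0.0544), did not pass there.

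Library composition differed between the groups as well. Counts in ribosomal protein genes made up 2.98 ± 0.112% of gene counts in OGDR, 2.57 ± 0.109% in MSCs and 3.02 ± 0.328% in rTMS-MSCs (SD, n = 4), with rTMS-MSCs 3 the highest at 3.488%. Of 80 ribosomal protein genes tested, 34 fell and none rose in MSCs against OGDR, 56 rose and none fell in rTMS-MSCs against MSCs with a median log2 fold change of 0.272, and 1 rose in rTMS-MSCs against OGDR. Of all genes, 11.6% rose and 8.63% fell in the first of these comparisons, 7.14% and 10.9% in the second, and 16.2% each way in the third. Without both libraries numbered 3, 8 of the 80 rose and none fell in rTMS-MSCs against MSCs, with a median of 0.138. In that setting 1.12% of all genes rose. Counts in the 13 genes of the mitochondrial genome made up 3.42 ± 0.2099% in OGDR, 2.76 ± 0.209% in MSCs and 3.06 ± 0.189% in rTMS-MSCs (SD, n = 4), and here rTMS-MSCs 3 was the lowest of its group, at 2.832%. Of these 13, 12 fell in MSCs against OGDR, 5 rose in rTMS-MSCs against MSCs, also without both libraries numbered 3, and 7 fell in rTMS-MSCs against OGDR. Atp6v1d, Atp6v0b and Atp6v0e2 were likewise lower with stem cells and higher with stimulation. The part of library composition in the pump and cathepsin results was not tested.

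**Figure D5:**
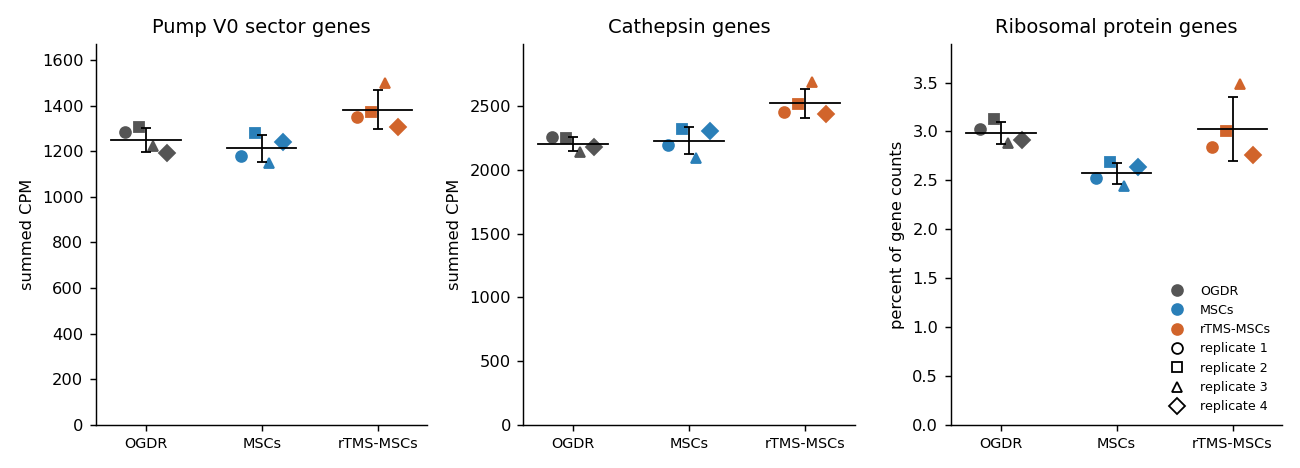
Summed CPM of the V0 genes (left) and of the cathepsins (middle), and the percent of gene counts in ribosomal protein genes (right), in each library with the group mean and SD (n = 4). rTMS-MSCs 3 is the highest library in all 3 panels and MSCs 3 the lowest, and in each panel every rTMS-MSCs library is above every MSCs library.

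Of 5 autophagy initiation genes tested, none fell. In MSCs against OGDR 1 rose, in rTMS-MSCs against MSCs 1 and in rTMS-MSCs against OGDR 2. Over all genes 11.6%, 7.14% and 16.2% rose and 8.63%, 10.9% and 16.2% fell in these comparisons. Becn1, the scaffold of the lipid kinase complex that marks the nascent sac, had 251, 252, 239 and 257 CPM in OGDR, 296, 301, 295 and 309.7 in MSCs and 299.99, 310.1, 297 and 317 in rTMS-MSCs. All treated libraries were above all OGDR libraries. It rose by a log2 fold change of 0.27 ± 0.047 (SE), adjusted p = 0.000311 in MSCs and 0.29 ± 0.047 (SE), adjusted p = 8.59e-05 in rTMS-MSCs against OGDR, both held under every alternative, and the interval between the treated groups was -0.071 to 0.13. Atg101, a member of the kinase complex around Ulk1, had 70.8, 67.04, 60.2 and 57.3 CPM in OGDR, 67.1, 73.2, 64.3 and 69.8 in MSCs and 82.3, 85.3, 98.8 and 74.5 in rTMS-MSCs. Its rTMS-MSCs libraries were above all others, with rTMS-MSCs 3 the highest. In rTMS-MSCs it rose by a log2 fold change of 0.31 ± 0.084 (SE), adjusted p = 0.0156 against MSCs and 0.42 ± 0.084 (SE), adjusted p = 0.000797 against OGDR. The first was lost without MSCs 3 (adjusted p = 0.059), and the second held under every alternative.

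Ulk1, the kinase itself, had 23.6, 22.6, 22.04 and 20.000 CPM in OGDR, 24.4, 25.7, 23.1 and 26.5 in MSCs and 24.3, 26.1, 21.3 and 24.1 in rTMS-MSCs. Its groups overlapped, and the differences were 0.18 (interval -0.011 to 0.36) in MSCs against OGDR and -0.058 (interval -0.24 to 0.13) in rTMS-MSCs against MSCs. Atg13 and Atg14 passed nowhere. In the wider list of initiation and phosphoinositide genes, 23 tested, 4 rose and 1 fell in MSCs against OGDR, 1 rose and 3 fell in rTMS-MSCs against MSCs, and 3 rose and 5 fell in rTMS-MSCs against OGDR. That was 21.7%, 17.4% and 34.8% against 20.2%, 18.1% and 32.4% of all genes, near the background, and none of the 4 calls between the treated groups passed without both libraries numbered 3. Bcl2l1, the survival protein that binds Becn1, had 179 ± 5.85 CPM in OGDR, 275 ± 8.37 in MSCs and 284 ± 7.37 in rTMS-MSCs, with 0.62 ± 0.048 (SE), adjusted p = 5.34e-09 in MSCs against OGDR. Rubcnl, a positive regulator of autophagosome maturation, had 1.17 ± 0.323 CPM in OGDR, 4.78 ± 0.941 in MSCs and 4.13 ± 0.317 in rTMS-MSCs, with 2.03 ± 0.23 (SE), adjusted p = 1.2e-06. Rb1cc1, the large scaffold of the Ulk1 complex, had 43.4 ± 5.804 CPM in OGDR, 32.99 ± 4.73 in MSCs and 26.1 ± 2.92 in rTMS-MSCs, and fell in rTMS-MSCs against OGDR at -0.73 ± 0.11 (SE), adjusted p = 5.29e-05.

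Of the 4 lipid supply genes, 2 fell in MSCs against OGDR, and 1 rose and 3 fell in rTMS-MSCs against OGDR, where 8.63% of all genes fell in the first and 16.2% changed each way in the second. Atg2a and Atg2b are bridges that carry lipid into the sac, and Atg9a and Atg9b are scramblases. Atg2a had 96.7, 85.6, 88.5 and 74.5 CPM in OGDR, 57.7, 62.1, 52.7 and 55.6 in MSCs and 48.01, 54.7, 55.2 and 51.4 in rTMS-MSCs, and Atg9b had 6.09, 6.41, 5.79 and 7.27 CPM in OGDR, 2.92, 3.44, 3.03 and 3.24 in MSCs and 3.54, 3.37, 2.597 and 2.66 in rTMS-MSCs. For both, every treated library was below every OGDR library. The log2 fold change of Atg2a was -0.60 ± 0.079 (SE), adjusted p = 9.74e-06 in MSCs and -0.72 ± 0.080 (SE), adjusted p = 7.44e-07 in rTMS-MSCs against OGDR. That of Atg9b was -1.01 ± 0.17 (SE), adjusted p = 0.000131 and -1.07 ± 0.17 (SE), adjusted p = 6.18e-05. These 4 calls held under every alternative.

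Atg2b, the paralog of Atg2a, had 49.6, 44.2, 53.1 and 51.01 CPM in OGDR, 56.3, 54.3, 59.3 and 52.8 in MSCs and 44.2, 42.9, 38.2 and 44.7 in rTMS-MSCs. The rTMS-MSCs libraries were below all MSCs libraries and overlapped OGDR. Its log2 fold change was -0.39 ± 0.076 (SE), adjusted p = 0.00301 against MSCs, the call of that comparison that also held without both libraries numbered 3, and -0.22 ± 0.076 (SE), adjusted p = 0.0328 against OGDR. The latter was lost without OGDR 1, OGDR 3, OGDR 4, rTMS-MSCs 2 or rTMS-MSCs 3 (adjusted p 0.0592 to 0.112).

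Atg9a, the widespread scramblase, had 69.04, 71.1, 69.4 and 56.9 CPM in OGDR, 76.1, 83.4, 73.8 and 75.6 in MSCs and 73.5, 83.1, 86.2 and 80.8 in rTMS-MSCs. All treated libraries were above all OGDR libraries, and OGDR 4 was the lowest. The rise passed in rTMS-MSCs against OGDR, at 0.28 ± 0.075 (SE), adjusted p = 0.00741. In MSCs against OGDR it just missed the threshold, at 0.21, adjusted p = 0.0509, and it passed there in 6 of 16 alternatives: by DESeq2 (adjusted p = 0.0367), under both other filters on low counts, with only the 8 libraries compared, without OGDR 2, and without both libraries numbered 3. Over the 16, its adjusted p ran from 0.0212 to 0.183.

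Of 10 conjugation and protease genes tested, Atg16l2 fell in MSCs against OGDR, where 8.63% of all genes fell. Atg4c fell in rTMS-MSCs against OGDR, where 16.2% of all genes fell, and the other 8 passed in no comparison. Atg4c, a protease that cuts Map1lc3 proteins, had 17.004, 14.4, 16.4 and 15.1 CPM in OGDR, 15.01, 12.6, 14.1 and 12.7 in MSCs and 12.9, 10.3, 9.12 and 13.3 in rTMS-MSCs. The rTMS-MSCs libraries were below all OGDR libraries, at -0.46 ± 0.12 (SE), adjusted p = 0.00697, a call held under every alternative. Atg16l2, a paralog of the conjugation scaffold Atg16l1, had 14.6, 14.98, 15.5 and 16.4 CPM in OGDR, 13.1, 11.1, 11.96 and 12.5 in MSCs and 13.7, 12.7, 14.9 and 10.2 in rTMS-MSCs. Its fall in MSCs against OGDR, at -0.34 ± 0.12 (SE), adjusted p = 0.0445, was lost when any 1 of the 8 libraries was left out, with adjusted p between 0.053 and 0.124. Without rTMS-MSCs 3 a fall in rTMS-MSCs against OGDR passed as well (adjusted p = 0.0419), as it did without both libraries numbered 3.

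Atg5 and Atg7, the core conjugation genes most often removed to block autophagy, did not pass. Atg5 had 59.4, 49.3, 56.3 and 56.4 CPM in OGDR, 55.3, 51.4, 46.7 and 46.7 in MSCs and 56.8, 53.2, 51.8 and 54.3 in rTMS-MSCs, and Atg7 had 31.7, 32.7, 29.8 and 32.3 CPM in OGDR, 34.2, 31.9, 31.6 and 29.8 in MSCs and 32.3, 32.9, 28.1 and 29.8 in rTMS-MSCs. The intervals for Atg7 were -0.15 to 0.18 in MSCs against OGDR and -0.22 to 0.11 in rTMS-MSCs against MSCs, and those for Atg5 were -0.30 to 0.013 and -0.049 to 0.27. Atg3, Atg4b, Atg4d, Atg10, Atg12 and Atg16l1 did not pass either.

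Of 6 genes of the Map1lc3 and Gabarap families tested, Gabarap rose in rTMS-MSCs against MSCs, where 7.14% of all genes rose. Map1lc3a and Gabarapl1 rose in rTMS-MSCs against OGDR, where 16.2% did. Rats carry processed copies of several of these genes, and the RefSeq table lists Gabarapl3 as a pseudogene, so reads may be shared between copies and the values of Gabarap, Gabarapl2, Gabarapl3 and Map1lc3b are uncertain to that extent. Gabarap had 275, 270.4, 268 and 265 CPM in OGDR, 237, 261, 213 and 250.2 in MSCs and 285, 293, 317 and 262 in rTMS-MSCs. Its MSCs libraries were below all others and, apart from rTMS-MSCs 4, its rTMS-MSCs libraries were above all others. Gabarap differed by 0.27 ± 0.064 (SE), adjusted p = 0.0082 in rTMS-MSCs against MSCs and -0.17, adjusted p = 0.0718 in MSCs against OGDR. The latter passed without MSCs 2 (adjusted p = 0.037), with only the 8 libraries compared and under upper quartile scaling, and the former was lost only when both libraries numbered 3 were left out, at 0.167 (adjusted p = 0.0782).

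Gabarapl1, a relative induced by stress in many cells, had 42.1, 45.1, 39.9 and 42.9 CPM in OGDR, 41.6, 52.3, 49.5 and 51.7 in MSCs and 50.3, 47.2, 57.2 and 55.96 in rTMS-MSCs. All rTMS-MSCs libraries were above all OGDR libraries, at 0.31 ± 0.084 (SE), adjusted p = 0.0078. In MSCs against OGDR the difference was 0.20, adjusted p = 0.105, and it passed without MSCs 1 (adjusted p = 0.03). Map1lc3a had 15.9, 20.4, 16.4 and 12.99 CPM in OGDR, 20.1, 23.04, 14.1 and 17.1 in MSCs and 21.4, 19.4, 32.4 and 21.8 in rTMS-MSCs. The groups overlapped, and rTMS-MSCs 3 was the highest. Its rise in rTMS-MSCs against OGDR, at 0.53 ± 0.16 (SE), adjusted p = 0.018, was lost without OGDR 4 (adjusted p = 0.0736) or rTMS-MSCs 3 (0.0702).

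Map1lc3b, whose lipid-bound protein is the usual readout of autophagosomes, did not pass at the level of RNA. It had 68.3, 77.6, 78.1 and 70.96 CPM in OGDR, 74.4, 78.98, 73.95 and 84.6 in MSCs and 79.9, 73.9, 78.4 and 79.3 in rTMS-MSCs, with groups that overlapped and intervals of -0.056 to 0.22 in MSCs against OGDR and -0.14 to 0.14 in rTMS-MSCs against MSCs. Gabarapl2 had 9.45, 7.197, 7.09 and 6.91 CPM in OGDR, 8.41, 6.36, 6.28 and 6.38 in MSCs and 5.08, 5.21, 6.15 and 8.93 in rTMS-MSCs. It did not pass either, except in rTMS-MSCs against OGDR without rTMS-MSCs 4 (adjusted p = 0.0309). Gabarapl3 passed nowhere.

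Optineurin (Optn), a receptor that links ubiquitin on damaged mitochondria and bacteria to Map1lc3 proteins, had 101, 109.5, 110.5 and 124 CPM in OGDR, 71.9, 70.9, 85.1 and 79.8 in MSCs and 79.8, 73.5, 68.9 and 74.9 in rTMS-MSCs. Every treated library was below every OGDR library, and the treated groups overlapped. It fell, with log2 fold changes of -0.54 ± 0.074 (SE), adjusted p = 1.66e-05 in MSCs and -0.58 ± 0.074 (SE), adjusted p = 4.72e-06 in rTMS-MSCs against OGDR, both held under every alternative. Among 23 other selective receptors and their kinases tested, 1 rose and 3 fell in MSCs against OGDR, none rose and 1 fell in rTMS-MSCs against MSCs, and 3 rose and 3 fell in rTMS-MSCs against OGDR. The shares called, 17.4%, 4.35% and 26.1%, were below the 20.2%, 18.1% and 32.4% of all genes. Bnip3, a mitophagy receptor induced by hypoxia, had 114 ± 9.602 CPM in OGDR, 57.5 ± 4.096 in MSCs and 60.9 ± 2.78 in rTMS-MSCs, with -0.99 ± 0.072 (SE), adjusted p = 1.98e-09 in MSCs against OGDR. Its relative Bnip3l had 86.7 ± 4.09 CPM in OGDR, 74.2 ± 5.16 in MSCs and 74.4 ± 5.08 in rTMS-MSCs, with -0.23 ± 0.068 (SE), adjusted p = 0.0219, and Nbr1, a receptor for ubiquitin-tagged cargo, had 256 ± 11.9 CPM in OGDR, 222 ± 7.25 in MSCs and 201 ± 19.2 in rTMS-MSCs, with -0.21 ± 0.062 (SE), adjusted p = 0.022.

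Tethering and fusion genes, which join autophagosomes to lysosomes, numbered 23 tested. In MSCs against OGDR 3 rose and 2 fell, in rTMS-MSCs against MSCs 1 rose and none fell, and in rTMS-MSCs against OGDR 3 rose and 3 fell. They came to 21.7%, 4.35% and 26.1%, against 20.2%, 18.1% and 32.4% of all genes, and the rise in rTMS-MSCs against MSCs did not pass without both libraries numbered 3. Rab7b, a small GTPase of late endosomes, had 88.8 ± 5.96 CPM in OGDR, 116 ± 2.499 in MSCs and 114 ± 2.796 in rTMS-MSCs, with 0.39 ± 0.057 (SE), adjusted p = 3.86e-05 in MSCs against OGDR. Arl8b, the GTPase that moves lysosomes along microtubules, had 211 ± 11.6 CPM in OGDR, 185 ± 8.75 in MSCs and 188 ± 14.9 in rTMS-MSCs, with -0.19 ± 0.062 (SE), adjusted p = 0.0322. Vamp8, a fusion protein of lysosomes and autophagosomes, had 72.9 ± 5.25 CPM in OGDR, 77.7 ± 5.31 in MSCs and 93.8 ± 15.9 in rTMS-MSCs, with 0.36 ± 0.094 (SE), adjusted p = 0.00576 in rTMS-MSCs against OGDR.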

How the data were processed

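Messenger RNA from 12 libraries of rat cells labelled PC12, 4 per group, was captured with oligo(dT) and sequenced, per the labels' protocols. The series text speaks of a microarray and of 20 samples, while the labels describe 12 sequencing libraries. Per the submitters' processing notes, HISAT2 2.1.0, HTSeq 0.11.2 and DESeq2 1.40.1 were used with build mRatBN7.2, and for the counting no strand setting is given in the sources used here. The values the authors deposited are raw counts per Ensembl gene for 30454 genes, plus 5 summary lines, which entered neither library sizes nor tests (51.73% to 52.71% of each column's sum fell on no feature).

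Low counts were filtered with edgeR 4.0.16 (filterByExpr, R 4.3.3, minimum count 10, minimum total 15). After TMM scaling, 1 quasi-likelihood fit of all 12 libraries gave each group its own mean, and 2-sided p-values were adjusted by Benjamini-Hochberg over all 13692 genes tested, with a threshold of 0.05. The members, roles and related lists were chosen with earlier results of these data known, so their directions are not independent evidence. Named in full were the 29 genes that passed in any comparison and a panel of 22, 39 in all. The test was also run on simulated counts, and the outcome is not given here. Deviations of same-numbered libraries of different groups correlated at -0.205 to 0.128. Only replicate 3 of MSCs against OGDR, at 0.128, exceeded the limit set, 0.1, and all correlations of that comparison were positive. The libraries share only a number, so numbers were not used as pairs in the main fit. No 2 replicates agreed within sampling noise. Symbols of 199 of the 214 related genes matched. Promoters came from RefSeq's GRCr8 table; Atg9a, Atp6v0d2, Atp6v0e2, Atp6v1b2, Atp6v1c1, Atp6v1fnb, Atp6v1h, Becn1, Ctsb, Ctsq, Ctsw, Gabarapl3 and Map1lc3a had none there. Alternatives were other scalings, the Wald test of DESeq2 1.42.0, other filters, a replicate block, fits of the 8 libraries compared, and leaving libraries out.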

Additional observations from a re-analysis of the deposited data

Results flagged for a closer look

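In 9 of 117 sets of 4 replicate values (39 genes in 3 groups), 1 library stood apart from the other 3 by Dixon's test at the 95% level. Chance alone gives about 1 in 20 such sets. Of the 9, 7 lay in OGDR libraries, and 3 of those in OGDR 3 alone. Atg9a was 56.9 CPM in OGDR 4 against 69.0 to 71.1 in the other OGDR libraries, the group it was compared with. The catalytic pump subunit Atp6v1a was 145 CPM in OGDR 1 against 167 to 170, and Atp6v1d was 218 CPM in OGDR 2 against 230 to 232. In OGDR 3, Ctsb was 795 CPM against 818 to 822, Ctsl was 499 CPM against 525 to 526, and Ctsk was 1.01 CPM against 0.585 to 0.623. Ctsl was also low in rTMS-MSCs 2, at 541 CPM against 563 to 567. Gabarapl2 was high in OGDR 1, at 9.45 CPM against 6.91 to 7.2, and in MSCs 1, at 8.41 CPM against 6.28 to 6.38.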

How the results depend on the processing

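Leaving out 1 library at a time gave 3 to 5 genes higher and 6 to 9 lower in MSCs against OGDR, 3 to 14 higher and 1 to 3 lower in rTMS-MSCs against MSCs, and 11 to 13 higher and 7 to 9 lower in rTMS-MSCs against OGDR. Without both treated libraries numbered 3, rTMS-MSCs against MSCs had 0 genes higher and 1 lower, and calls over all genes went from 2475 to 677. Those calls were 1006 without MSCs 3, 1313 without MSCs 1 and 1480 without rTMS-MSCs 3, and the cause was not tested. With the replicate number as a block, the genes higher and lower were 4 and 7, 9 and 2, and 13 and 7 in the order of the comparisons, with 2577, 1995 and 4185 calls over all genes. The block ended the calls of Atg16l2, Atp6v0b and Atp6v1g2 in MSCs against OGDR, of Atp6v1e1 and Ctsh in rTMS-MSCs against MSCs, and of Atg2b and Tfe3 in rTMS-MSCs against OGDR; the libraries share only a number. With no filter on low counts 7 calls were lost: those of Atg16l2, Atp6v0b, Atp6v0e2 and Atp6v1g2 in the first comparison, of Atp6v0e2 and Atp6v1e1 in the second, and of Tfe3 in the third. With only the 8 libraries compared, Atp6v0e2, Atp6v1e1 and Ctsh were lost in the second comparison and Atg2b and Tfe3 in the third. Of 49 calls on named genes, 27 held under every alternative run and 22 were lost under some, and none changed direction. Of 68 named results that did not pass, 9 passed under some alternative: Atg9a, Gabarap, Gabarapl1 and Tfe3 in the first comparison, Atp6v0e1, Lamp1 and Lamp2 in the second, and Atg16l2 and Gabarapl2 in the third. Under the other scalings, filters and DESeq2, counts stayed within 1.5 times those reported. Depth limits the genes near 1 CPM, Atp6v1g2, Ctse, Ctsk and Lamp3, whose intervals are wide.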
